A study of Mus musculus with 18 samples.

Results

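The hearts described here came from mice with a homozygous cardiomyocyte knockout of Cops8, which encodes CSN8, a subunit of the COP9 signalosome, and the comparison follows them from 2 to 3 weeks of age. The members were chosen by their titles: the 3 homozygous knockout hearts taken at 3 weeks and the 3 taken at 2 weeks, 6 of the 18 arrays in the series. The study set out to follow gene expression in the ventricle as the knockout animals develop heart disease, beside littermates of the same ages. All animals were FVB/N mice from 1 cross, and every group carried a Cops8 allele in which exons 4 to 6 lie between loxP sites. Homozygous knockout animals (Hom-CKO) were Csn8flox/flox::Myh6-CreTG, heterozygous knockout animals (Het-CKO) were Csn8flox/+::Myh6-CreTG, and control animals (CTL) were Csn8flox/flox::Myh6-CreNTG, each with 3 animals at 2 weeks and 3 at 3 weeks. Cre was driven by the Myh6 (α-myosin heavy chain) promoter and so acts in cardiomyocytes, while the other cells of the ventricle keep the gene. The CTL animals carried no Cre transgene, so Het-CKO is the group against which an effect of Cre itself is balanced. Each array held RNA from the ventricular tissue of 1 heart on a CodeLink whole mouse genome array. Both sexes were used. Of 5 sex-linked genes tested, 3 were called higher and 1 lower from 2 to 3 weeks in Het-CKO hearts and 0 in Hom-CKO and CTL hearts, so the sexes were not balanced by age in Het-CKO. Their median log2 change was -1.425 in Hom-CKO and 1.03 in CTL hearts, so the lack of calls does not show that the sexes were balanced there. The part of sex in the Hom-CKO change and in the differences from CTL and Het-CKO was not tested.

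The COP9 signalosome removes the ubiquitin-like protein NEDD8 from cullins and thereby keeps the cullin-RING ubiquitin ligases cycling between active and inactive states. In cardiomyocytes these ligases feed the proteasome, and the signalosome is also tied to the maturation of autophagosomes. The weeks around weaning are also a time of normal maturation, in which the mouse ventricle leaves the cell cycle, replaces fetal isoforms of contractile proteins and adjusts its fuel supply as the diet changes from milk to chow. A change from 2 to 3 weeks in Hom-CKO hearts therefore spans both maturation and disease, and the changes in CTL and Het-CKO hearts are given beside the gene lists and most of the genes.

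Levels are background-subtracted spot intensities, quantile normalized over the 18 arrays and expressed relative to the median probe, which is set to 1, with a floor at 0.318. They compare hearts for 1 probe and not 1 gene with another. Changes are log2 differences of 3 against 2 weeks ± standard error (n = 3 hearts per age), from limma with Benjamini-Hochberg adjustment over all probes tested, and a probe was called at an adjusted p under 0.05. The 2-week arrays and the 3-week arrays were scanned as separate sets, so within a genotype the effects of age and of scan set cannot be told apart. A shift of a scan set that is common to the genotypes cancels in the difference between the Hom-CKO change and the CTL or Het-CKO change, which was tested as a contrast of its own. The Hom-CKO arrays had median raw intensities of 55.6, 42.3 and 56.2 at 2 weeks and of 40.4, 36.7 and 39.6 at 3 weeks, and from 21.8% to 25.8% and from 25.8% to 28.3% of their probes lay near background. The CTL arrays had medians of 39.4, 47.7 and 38.7 at 2 weeks and 28.5, 27.3 and 32 at 3 weeks. The Het-CKO arrays had 54.8, 50.9 and 55.6 and then 37.2, 33.2 and 36.6. At 3 weeks 33.8%, 34.9% and 30.3% of the CTL probes lay near background. The CTL arrays were thus dimmer than the Hom-CKO arrays at 3 weeks, and a shift that differs between genotypes does not cancel. Its part in the differences was not tested. The number of arrays limits the precision. Scaling by the bacterial spike-in controls in place of quantile normalization moved the median of all probes to a log2 change of -0.187 and left 713 Hom-CKO calls.

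The targeted gene was examined first. The brighter of 2 Cops8 probes gave Hom-CKO levels of 39.9, 41.4 and 34.9 at 2 weeks and 35.2, 35.4 and 35.8 at 3 weeks (log2 change -0.12, adjusted p = 0.483), beside CTL means of 34.8 and 31.7 and Het-CKO means of 35.5 and 30.9. The Hom-CKO hearts thus stood no lower than the other genotypes at either age. It is not known whether the probes lie in the floxed exons, so they check neither the deletion nor the labels. Markers of ventricular cardiomyocytes were above background in all 6 Hom-CKO hearts. Tnni3, the adult cardiac troponin I, had levels of 398 in all 3 hearts at 2 weeks and 385, 362 and 384 at 3 weeks (log2 change -0.08, adjusted p = 0.557). Phospholamban (Pln), which restrains the calcium pump of the sarcoplasmic reticulum, had levels of 326, 349 and 384 at 2 weeks and 287, 282 and 298 at 3 weeks (log2 change -0.28, adjusted p = 0.093). Neither was called, and the sign of both turned under quantile normalization within each age (0.343, adjusted p = 0.00601, for Tnni3 and 0.123 for Pln) and that of Tnni3 under median scaling (0.195), while Tnnt2, the cardiac troponin T, rose by a log2 change of 0.42 (adjusted p = 0.0107).

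From 2 to 3 weeks 3725 of 26588 probes were called in Hom-CKO hearts, which is 14% of those tested, with 1912 higher and 1813 lower (7.19% and 6.82%). Of these, 310 rose and 197 fell by a log2 change of at least 1. The hearts of the 2 ages did not overlap at 3704 of the 3725 called probes (99.4%), so separation of the ages adds nothing to a call. This holds also where separation is mentioned for a called gene below. In CTL hearts 4423 probes were called (16.6%, with 8.08% higher and 8.55% lower) and in Het-CKO hearts 2173 (8.17%, with 4.3% higher and 3.87% lower). Of the 3725 probes, 1576 (42.3%) were also called in CTL hearts in the same direction and 33 (0.886%) in the opposite direction. The Hom-CKO change itself differed from the CTL change at 366 probes (1.38% of 26566 tested, 232 or 0.873% more positive and 134 or 0.504% more negative) and from the Het-CKO change at 308 probes (1.16% of 26568 tested, 226 or 0.851% more positive and 82 or 0.309% more negative). Both differences were called at 202 probes, with the Hom-CKO change more positive at 156 and more negative at 46. Leaving out 1 Hom-CKO heart at a time gave between 2251 and 3041 calls in Hom-CKO hearts, the fewest without the first heart at 2 weeks, with 2472 without the third heart at 2 weeks and 2362 without the second at 3 weeks. The gene lists below are read against the 16624 named genes at their brightest probe. Of these 15.9% were called in Hom-CKO hearts (8.87% higher and 7.01% lower), 16% in CTL hearts (9.42% and 6.56%) and 9.39% in Het-CKO hearts (5.24% and 4.15%). The Hom-CKO change differed from the CTL change for 1.76% of them (1.09% more positive and 0.662% more negative) and from the Het-CKO change for 1.45% (1.06% and 0.385%).

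**Figure D1:**
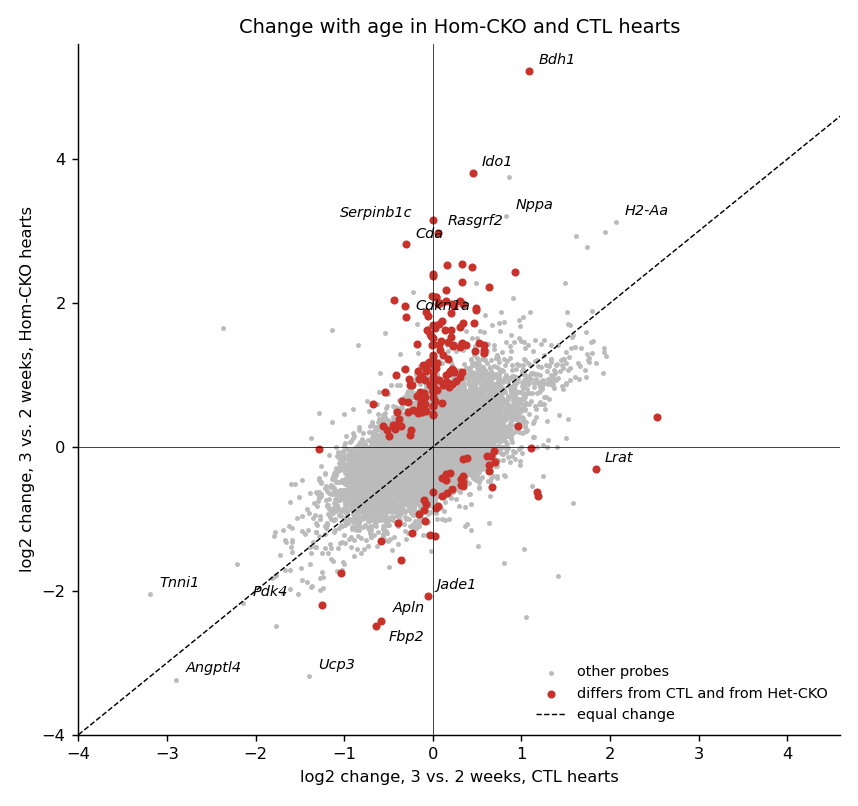
Log2 change from 2 to 3 weeks in CTL hearts (x axis) against Hom-CKO hearts (y axis), 1 point per probe tested, with the dashed line marking equal change. Red points are the 202 probes whose Hom-CKO change differed from both the CTL and the Het-CKO change (adjusted p under 0.05), 156 of them on the side where Hom-CKO is more positive.

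The largest rise among named genes was that of Bdh1, the mitochondrial enzyme that interconverts the ketone bodies beta-hydroxybutyrate and acetoacetate. Its Hom-CKO levels were 0.493, 0.508 and 0.321 at 2 weeks and 15.1, 18 and 15.3 at 3 weeks. This was a 37.2-fold rise (log2 change 5.22 ± 0.18, adjusted p = 9.74e-11). The CTL and Het-CKO hearts at 2 weeks all lay at the floor, above background on no array, and their 3-week means were 0.685 and 0.846. The size of the difference therefore depends on the floor: it was 4.13 against CTL and 3.83 against Het-CKO, and with the lowest positive value as floor it was 3.39 (adjusted p = 0.00264) and 2.78 (adjusted p = 0.012). Ido1, which opens tryptophan breakdown to kynurenine, had levels of 2.26, 2.61 and 1.65 at 2 weeks and 28.7, 29.4 and 32 at 3 weeks (log2 change 3.81 ± 0.23, adjusted p = 1.04e-07). The CTL and Het-CKO changes of Ido1, 0.45 (adjusted p = 0.239) and 0.52 (adjusted p = 0.177), were not called, and the Hom-CKO change exceeded them by 3.36 (adjusted p = 9.09e-05) and 3.29 (adjusted p = 6.75e-05).

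Further genes rose in Hom-CKO hearts from low levels. Cda, the cytidine deaminase of pyrimidine salvage, had levels of 1.55, 1.48 and 1.58 at 2 weeks and 10, 13.3 and 9.4 at 3 weeks and differed from CTL by 3.12 (adjusted p = 1.96e-05) and from Het-CKO by 3.10 (adjusted p = 1.68e-05). Serpinb1c, an intracellular serine protease inhibitor, had levels of 1.06, 0.843 and 0.609 at 2 weeks and 7.49, 7.32 and 6.95 at 3 weeks (log2 change 3.15 ± 0.13, adjusted p = 7.18e-10). Its changes in CTL and Het-CKO hearts, 0.01 and 0, were set by the floor and do not show a steady level. With the lowest positive value as floor the Hom-CKO change of Serpinb1c was 3.15 (adjusted p = 0.000622). Its differences from CTL and Het-CKO were then 1.945 and 2.989 and were not called (adjusted p of 0.226 and 0.0629). Mylk2, the myosin light chain kinase known from skeletal muscle, had Hom-CKO levels of 0.361, 0.468 and 0.341 at 2 weeks and 1.84, 2.25 and 1.97 at 3 weeks. All its CTL and Het-CKO hearts lay at the floor, and it passed the filter through the Hom-CKO hearts. Values at the floor have no spread, and with the lowest positive value as floor its change was 2.38 (adjusted p = 5.08e-06) and the difference from CTL 2.16 (adjusted p = 0.00213). Ankrd2, a stretch-responsive ankyrin repeat protein of muscle, had levels of 0.404, 0.318 and 0.318 at 2 weeks and 2.05, 2.48 and 1.53 at 3 weeks, so the size of its change, 2.52, depends on the floor, and it was 2.85 (adjusted p = 0.000408) with the lowest positive value as floor. Rasgrf2, an exchange factor for Ras, had levels of 0.318 in all 3 hearts at 2 weeks and 2.2, 2.82 and 2.55 at 3 weeks and CTL and Het-CKO means of no more than 0.333, so the size of its change depends on the floor too, and its differences from CTL and Het-CKO were not called with the lowest positive value as floor (adjusted p of 0.0582 and 0.114). Gm15743 was above background on no Hom-CKO array at 2 weeks and read 2.03, 1.57 and 1.49 at 3 weeks, at least 5.28-fold above the floor, but its change was not called with the lowest positive value as floor (adjusted p = 0.543). Tent5b, a poly(A) polymerase, had levels of 0.993, 0.789 and 0.406 at 2 weeks and 9.86, 7.69 and 10.3 at 3 weeks and differed from CTL by 2.89 (adjusted p = 0.00817), with 2.11 (adjusted p = 0.0634) against Het-CKO. Serpina3n, an acute-phase protease inhibitor, had levels of 0.789, 0.981 and 0.791 at 2 weeks and 5.33, 5 and 3.58 at 3 weeks (log2 change 2.43 ± 0.16, adjusted p = 2.55e-07), and its change exceeded the CTL change by 1.51 (adjusted p = 0.00287) and the Het-CKO change by 1.81 (adjusted p = 0.00108).

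**Figure D2:**
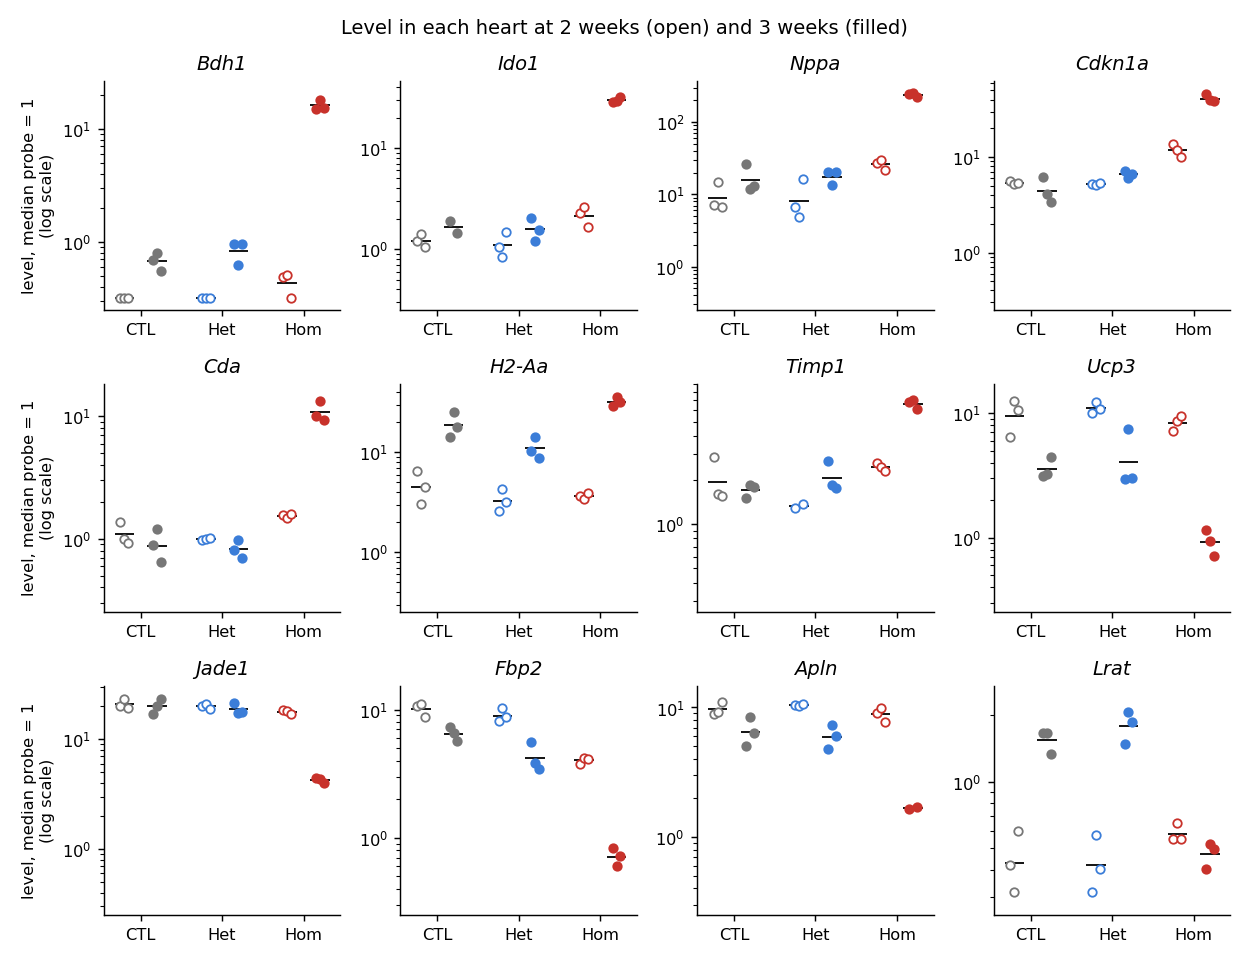
Level of 12 genes in each heart (y axis, log scale, median probe = 1) by genotype, with open points for 2 weeks, filled points for 3 weeks and a black bar at the mean of the log2 levels (n = 3 hearts, fewer where a spot was flagged). Hom-CKO hearts that do not overlap by age were a condition for the genes chosen as largest changes or differences. For Lrat the Hom-CKO hearts lie close together while the CTL and Het-CKO hearts lie far apart by age.

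Angptl4, Ucp3, Pdk4 and Scd4 act in lipid and fuel use and fell in Hom-CKO hearts. Angptl4, a secreted inhibitor of lipoprotein lipase, had Hom-CKO levels of 18.7, 21.8 and 21.2 at 2 weeks and 3.13 and 1.52 in the 2 hearts with a usable spot at 3 weeks (log2 change -3.23 ± 0.59, adjusted p = 0.00203). Its change in CTL hearts was -2.89 (adjusted p = 0.00279), close in size to that in Hom-CKO hearts. Ucp3, a mitochondrial carrier of fatty acid-burning muscle, had levels of 7.21, 8.57 and 9.42 at 2 weeks and 1.15, 0.941 and 0.716 at 3 weeks, a 9.1-fold fall (log2 change -3.19 ± 0.31, adjusted p = 7.95e-06). CTL hearts changed by -1.40 (adjusted p = 0.00758) and Het-CKO hearts by -1.44 (adjusted p = 0.0119), and the difference from CTL, -1.79 (adjusted p = 0.0599), was not called. Pdk4, which shuts off pyruvate dehydrogenase, had levels of 38.1, 38.3 and 40.4 at 2 weeks and 12, 7.5 and 7.13 at 3 weeks and fell as far in CTL hearts (-2.17 in Hom-CKO against -2.14 in CTL). Scd4, a stearoyl-CoA desaturase, had levels of 3.95, 4.63 and 4.5 at 2 weeks and 0.769, 0.715 and 0.859 at 3 weeks and also fell in CTL hearts (-1.77 (adjusted p = 0.00471)). The fall of Angptl4, Pdk4 and Scd4 was therefore shared with controls of the same ages.

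Other falls were steeper in Hom-CKO hearts than in both other genotypes. Fbp2, the muscle fructose bisphosphatase of gluconeogenesis, had levels of 3.78, 4.15 and 4.09 at 2 weeks and 0.825, 0.603 and 0.723 at 3 weeks (log2 change -2.49 ± 0.17, adjusted p = 1.66e-07), and its change differed from CTL by -1.85 (adjusted p = 0.000617) and from Het-CKO by -1.40 (adjusted p = 0.00715). Jade1, a subunit of the HBO1 histone acetyltransferase complex, had levels of 18.4, 18.2 and 17 at 2 weeks and 4.41, 4.36 and 3.96 at 3 weeks (log2 change -2.07 ± 0.12, adjusted p = 2.3e-08), whereas the CTL change was -0.06 and the Het-CKO change -0.09. A second, dimmer Jade1 probe gave -0.45 and was not called (adjusted p = 0.274). Apln, the precursor of the inotropic peptide apelin, had levels of 9.13, 9.94 and 7.71 at 2 weeks and 1.63 and 1.69 in the 2 hearts with a usable spot at 3 weeks and differed from CTL by -1.83 (adjusted p = 0.00212). Hearts that did not overlap by age were a condition for choosing Fbp2, Jade1 and Apln, so their separation adds nothing. Lrat, which esterifies retinol for storage, behaved otherwise. Its Hom-CKO levels were 0.553, 0.648 and 0.55 at 2 weeks and 0.404, 0.522 and 0.496 at 3 weeks, an uncalled change (log2 change -0.31, adjusted p = 0.415), while the CTL mean went from 0.446 to 1.55 and the Het-CKO mean from 0.433 to 1.79. The difference was -2.14 (adjusted p = 0.00201) against CTL and -2.39 (adjusted p = 0.000758) against Het-CKO, so Lrat rose in both other genotypes and its Hom-CKO change differed from that rise. Hom-CKO hearts that did not overlap by age were a condition for choosing Lrat too, so their order by age is no result.

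The fetal gene program, the set of genes that a stressed ventricle takes up again, moved in part. Of 13 listed genes tested in Hom-CKO hearts, 3 rose and 2 fell, with a median log2 change of 0.36 beside 0.025 over all named genes. In CTL hearts the list had 0 higher, 3 lower and a median of -0.217, in Het-CKO hearts 0, 1 and -0.035, and no member's change differed from either genotype by the adjusted test, although 2 differed from CTL when the first CTL heart at 2 weeks or the first at 3 weeks was left out. Nppa, the atrial natriuretic peptide, had Hom-CKO levels of 27.6, 29.7 and 21.6 at 2 weeks and 245, 254 and 224 at 3 weeks, a 9.23-fold rise (log2 change 3.21 ± 0.40, adjusted p = 7.47e-05). The CTL change was 0.83 (adjusted p = 0.164) and the difference 2.38 (adjusted p = 0.0506), just short of the threshold. Nppb, the brain natriuretic peptide, had levels of 152, 116 and 97.4 at 2 weeks and 197, 214 and 247 at 3 weeks (log2 change 0.87 ± 0.23, adjusted p = 0.0203, beside -0.37 in CTL and -0.18 in Het-CKO hearts). Its call was lost when the second or the third heart at either age was left out (adjusted p from 0.0559 to 0.0993). Ankrd1, a sarcomeric stress protein, had levels of 44.3, 34.5 and 24.7 at 2 weeks and 75, 71.9 and 76.6 at 3 weeks, with all hearts at 3 weeks higher (log2 change 1.15 ± 0.25, adjusted p = 0.00607, beside 0.44 in CTL and 0.04 in Het-CKO hearts). Acta1, skeletal α-actin, gave 162, 144 and 126 at 2 weeks and 274 and 254 in the 2 hearts with a usable spot at 3 weeks and was not called (adjusted p = 0.139), but it was in a fit of the 6 Hom-CKO arrays alone blocked on replicate number (adjusted p = 0.00663). Myh7, the slow β-myosin heavy chain, gave 1.42, 1.29 and 1.31 at 2 weeks and 1.94, 1.47 and 2.41 at 3 weeks (log2 change 0.51, adjusted p = 0.344), while a dimmer probe of the gene was called at 0.90 (adjusted p = 0.00139), so its probes disagree. The brighter probe was called in the fit of the 6 Hom-CKO arrays alone with the block (adjusted p = 0.0466). Tnni1, the slow skeletal troponin I that the heart gives up after birth, fell in Hom-CKO hearts, from 2.94, 2.38 and 3.9 at 2 weeks to 0.655, 0.646 and 0.928 at 3 weeks, and in CTL hearts by -3.19 (adjusted p = 8.96e-05).

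Some genes of the contractile apparatus rose. Of 35 sarcomere genes 9 rose and 1 fell in Hom-CKO hearts with a median of 0, beside 3 and 0 in CTL hearts and 2 and 0 in Het-CKO hearts. Cryab, the small heat shock protein of the Z-disc, had levels of 136, 120 and 111 at 2 weeks and 251, 224 and 195 at 3 weeks (log2 change 0.87 ± 0.17, adjusted p = 0.00275, beside 0.66 in CTL and 0.48 in Het-CKO hearts). Csrp3, the muscle LIM protein, had levels of 135, 128 and 96 at 2 weeks and 221, 171 and 177 at 3 weeks (log2 change 0.67 ± 0.13, adjusted p = 0.00345, beside 0.25 in CTL and 0.16 in Het-CKO hearts). Mybpc2, the fast skeletal myosin binding protein C, had levels of 17, 15.3 and 13.9 at 2 weeks and 30.4, 30.9 and 30.8 at 3 weeks (log2 change 1 ± 0.20, adjusted p = 0.00393, beside -0.07 in CTL and -0.19 in Het-CKO hearts). Myom3, an M-band protein, had levels of 0.318, 0.399 and 0.318 at 2 weeks and 0.681, 0.55 and 0.552 at 3 weeks and differed from both CTL and Het-CKO (0.78, adjusted p = 0.00638 and 0.00726), although 2 of its 3 hearts at 2 weeks lay at the floor and its change was not called with the lowest positive value as floor (adjusted p = 0.297). The member that fell, Tnnt1, the slow skeletal troponin T, had levels of 2.38, 3.03 and 2.65 at 2 weeks and 1.44, 1.2 and 0.988 at 3 weeks (log2 change -1.16, adjusted p = 0.000894, beside -0.32 in CTL and -0.56 in Het-CKO hearts). Myh6, the main adult myosin of the mouse ventricle, gave 4.49, 4.12 and 4.18 at 2 weeks and 5.35, 3.39 and 4.18 at 3 weeks and did not separate by age (log2 change -0.01, adjusted p = 0.996).

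Calcium handling genes were nearly all uncalled: of 23, 1 was higher and 1 lower, with a median of -0.072, beside 3 and 2 in CTL and 1 and 0 in Het-CKO hearts. Atp2a2, the sarcoplasmic reticulum calcium pump, gave 521, 587 and 521 at 2 weeks and 431, 423 and 471 at 3 weeks at its bright probe (log2 change -0.30, adjusted p = 0.054), where spots of 2 hearts at 2 weeks were saturated, and a dimmer probe was called lower (-1.04, adjusted p = 0.0128). Of 32 ion channel and junction genes 2 rose and 4 fell in Hom-CKO hearts, beside 0 and 1 in CTL and 1 and 2 in Het-CKO hearts. Kcnip2, an accessory subunit of the channels of the transient outward potassium current, had levels of 11.6, 11.9 and 16 at 2 weeks and 4.85, 6.41 and 6.37 at 3 weeks. All hearts at 3 weeks were lower (log2 change -1.16 ± 0.21, adjusted p = 0.00191), the CTL change was 0.43, and the difference from CTL was -1.59 (adjusted p = 0.013). Ctnna3, an α-catenin of the intercalated disc, had levels of 2.21, 2.31 and 2.42 at 2 weeks and 1.13, 1.18 and 1.16 at 3 weeks (log2 change -1 ± 0.11, adjusted p = 3.38e-05), with a difference from CTL of -0.70 (adjusted p = 0.0409) that was lost when any of 9 of the 12 hearts was left out (adjusted p up to 0.110). The differences of Kcnip2 and Ctnna3 from Het-CKO were not called. Kcne1, a potassium channel subunit of the immature heart, changed by -0.92 in Hom-CKO and -1.39 in CTL hearts.

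Many genes of fatty acid oxidation fell. Of 37 tested, 22 were lower and 0 higher in Hom-CKO hearts with a median log2 change of -0.551, where CTL hearts had 10 lower, 1 higher and a median of -0.205 and Het-CKO hearts 11 lower, 0 higher and a median of -0.308. Fatty acid oxidation supplies most of the energy of the postnatal heart. For 4 members the fall was steeper in Hom-CKO than in CTL hearts, and for 4 than in Het-CKO hearts, beside 0.662% and 0.385% of all named genes. The count depends on the scaling: 14 members were lower under median scaling, 10 under spike-in scaling, and 12 lower with 2 higher under quantile normalization within each age. Plin5, a lipid droplet protein that meets mitochondria, had levels of 27.2, 31.5 and 32 at 2 weeks and 11, 9.65 and 9.76 at 3 weeks, with every heart at 3 weeks lower (log2 change -1.57 ± 0.15, adjusted p = 4.74e-06), and its change differed from CTL by -1.21 (adjusted p = 0.00618) and from Het-CKO by -1.13 (adjusted p = 0.0116). Slc25a20, the carnitine acylcarnitine carrier of the inner mitochondrial membrane, had levels of 12.2, 14.9 and 14.5 at 2 weeks and 5.98, 5.73 and 6.4 at 3 weeks (log2 change -1.19 ± 0.13, adjusted p = 2.87e-05) and a difference from CTL of -0.96 (adjusted p = 0.0175), lost without any of 3 hearts (adjusted p up to 0.0544). Cpt1b, the muscle carnitine palmitoyltransferase, gave -0.59 and was not called (adjusted p = 0.121), and Ppargc1a, the coactivator of mitochondrial biogenesis, gave -0.35 (adjusted p = 0.256). Both were called in the fit of the 6 Hom-CKO arrays alone with the block (adjusted p of 0.00746 and 0.0302).

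In the other fuel pathways fewer members were called. Of 39 genes of glycolysis, glycogen and fructose bisphosphate metabolism 4 rose and 4 fell (median -0.054), beside 5 and 2 in CTL and 0 and 2 in Het-CKO hearts. Hk2, the insulin-responsive hexokinase, had levels of 36.1, 33.5 and 32 at 2 weeks and 61.1, 53.5 and 55.5 at 3 weeks (log2 change 0.74, adjusted p = 0.00653, beside 0.39 in CTL and 0.13 in Het-CKO hearts). Slc2a1, the basal glucose transporter, had levels of 0.549, 0.538 and 0.339 at 2 weeks and 1.72 and 1.09 in the 2 hearts with a usable spot at 3 weeks (log2 change 1.56 ± 0.24, adjusted p = 0.000608, beside 0.89 in CTL and 0.52 in Het-CKO hearts). Pfkfb1 was lower (log2 change -0.68, adjusted p = 0.0245), opposite to the CTL change of 0.64, but the call was lost without the third heart at 2 weeks, the second at 3 weeks or the third at 3 weeks (adjusted p of 0.128, 0.0973 and 0.0891). Of 65 oxidative phosphorylation genes 3 rose and 0 fell (median 0.014), beside 5 and 1 in CTL and 1 and 1 in Het-CKO hearts, a share below that of all named genes, but 39 were higher under quantile normalization within each age. Of 38 genes of ketone, amino acid and folate-cycle metabolism 6 rose and 2 fell (median 0.146), beside 14 and 0 in CTL hearts (median 0.287) and 6 and 0 in Het-CKO hearts (median 0.172). Bhmt2, a methyltransferase that makes methionine from homocysteine, had levels of 19.7, 15.9 and 16.5 at 2 weeks and 34.5, 34.1 and 29.3 at 3 weeks and exceeded the CTL change by 1.12 (adjusted p = 0.00287). The difference of Bhmt2 from Het-CKO was not called. Pparg, the lipid-storage nuclear receptor, had levels of 2.81, 2.94 and 3.51 at 2 weeks and 5.09, 5.77 and 5.87 at 3 weeks with no overlap (log2 change 0.86 ± 0.10, adjusted p = 4.89e-05), and exceeded the CTL change by 1.09 (adjusted p = 0.000795) and the Het-CKO change by 0.93 (adjusted p = 0.00324).

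**Figure D3:**
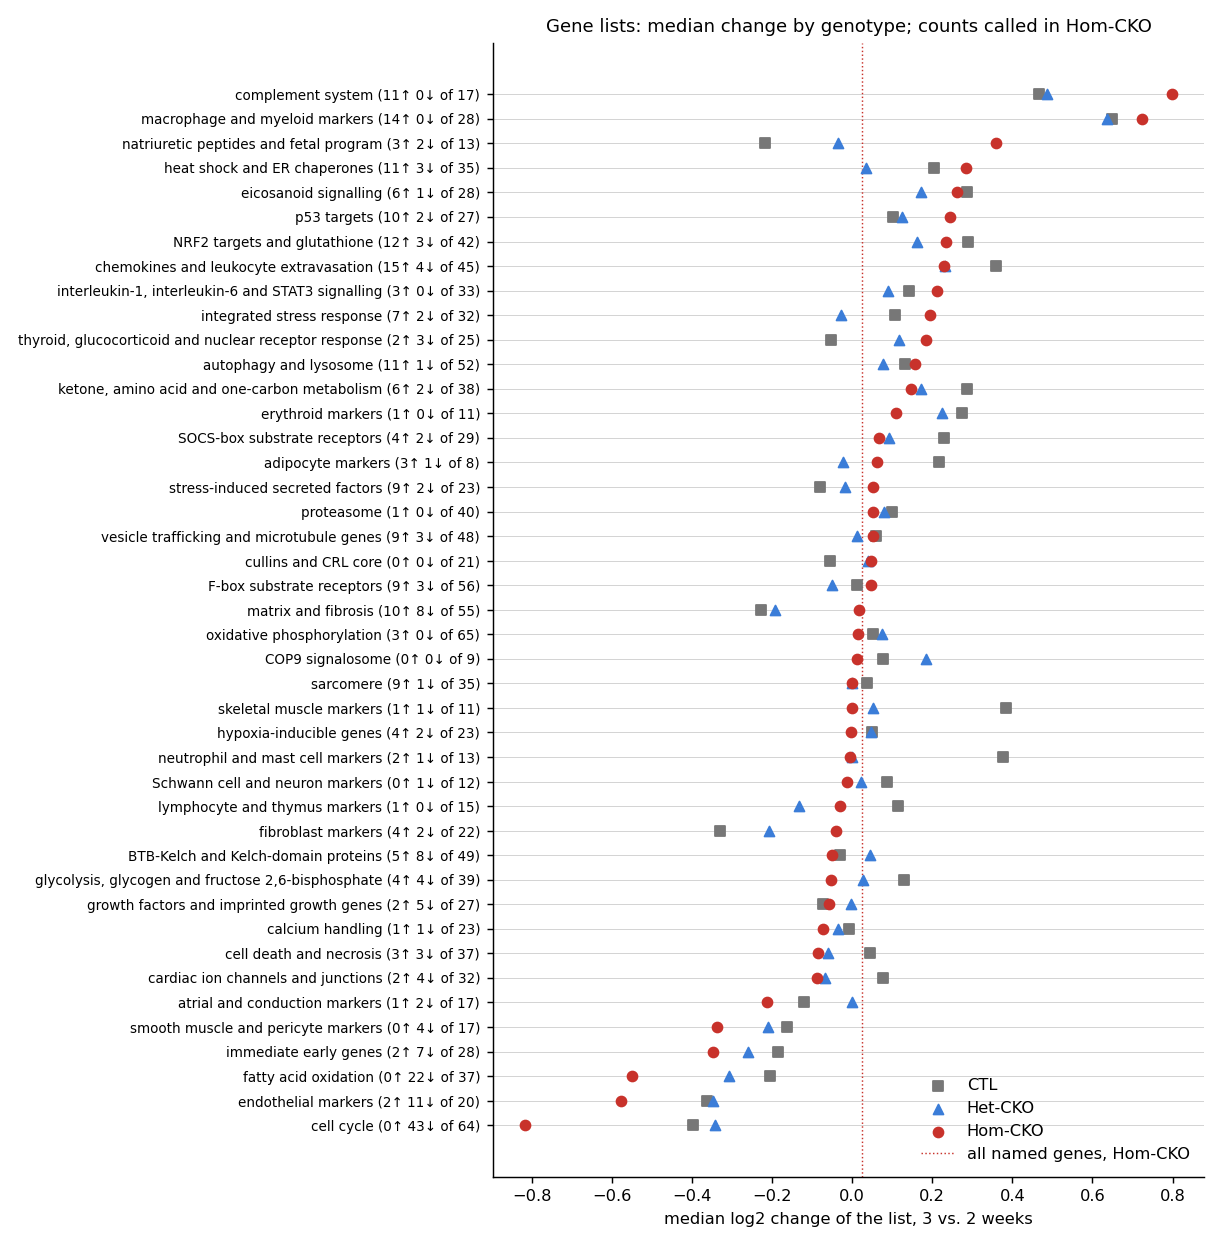
Median log2 change from 2 to 3 weeks of each gene list (x axis) in CTL, Het-CKO and Hom-CKO hearts, with the number of members called higher and lower in Hom-CKO hearts beside each list and a dotted line at the Hom-CKO median of all named genes. The cell cycle (-0.817), endothelial (-0.577) and fatty acid oxidation (-0.551) lists lie lowest in Hom-CKO hearts and the complement (0.799) and macrophage (0.724) lists highest.

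Several stress-responsive genes rose in Hom-CKO hearts, and for a few of them the rise exceeded that in another genotype. Of 27 targets of p53, the factor that answers DNA damage, 10 rose and 2 fell in Hom-CKO hearts (median 0.244), beside 5 and 2 in CTL hearts (median 0.102) and 3 and 1 in Het-CKO hearts (median 0.125), and 3 exceeded the CTL change. Cdkn1a, the cyclin-dependent kinase inhibitor p21, had Hom-CKO levels of 13.8, 11.8 and 10.1 at 2 weeks and 45.8, 39.3 and 38.5 at 3 weeks, a 3.48-fold rise with no overlap (log2 change 1.80 ± 0.17, adjusted p = 4.39e-06). The CTL mean went from 5.4 to 4.53 and the Het-CKO mean from 5.25 to 6.61, and the difference was 2.10 (adjusted p = 0.00016) against CTL and 1.47 (adjusted p = 0.0044) against Het-CKO. Phlda3, an inhibitor of Akt, had levels of 7.46, 7.35 and 7.38 at 2 weeks and 19.5, 20.6 and 19.4 at 3 weeks (log2 change 1.42 ± 0.16, adjusted p = 2.38e-05, beside 0.07 in CTL and 0.40 in Het-CKO hearts) and exceeded the CTL change by 1.35 (adjusted p = 0.0043). Its difference from Het-CKO was called with all hearts but lost in 11 fits that left out a heart (adjusted p up to 0.0987). Bax, a pore-forming member of the BCL2 family, had levels of 14.5, 12 and 11.8 at 2 weeks and 20.8, 21.9 and 21.3 at 3 weeks (log2 change 0.75 ± 0.12, adjusted p = 0.000512, beside 0.38 in CTL and 0.38 in Het-CKO hearts), and neither difference was called. Plk2 and Trp53 itself fell, with log2 changes of -0.52 and -0.48.

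Of 42 NRF2 targets and glutathione genes, which defend against oxidants and electrophiles, 12 rose and 3 fell (median 0.235), beside 14 and 1 in CTL hearts (median 0.289) and 9 and 1 in Het-CKO hearts (median 0.163), and 1 member exceeded the CTL change. Nqo1, a quinone reductase, had levels of 7.31, 7.24 and 6.91 at 2 weeks and 12.8, 13.3 and 14.1 at 3 weeks and rose by 0.91 in Hom-CKO and 0.94 in CTL hearts. Gstm2, a glutathione transferase, had levels of 4.76, 4.6 and 4.97 at 2 weeks and 11, 12.4 and 11.5 at 3 weeks and rose by 1.28 and 1.25. Gsta1, another glutathione transferase, had Hom-CKO levels of 0.318, 0.459 and 0.318 at 2 weeks and 1.39, 0.978 and 1.07 at 3 weeks and a difference from CTL of 1.63 (adjusted p = 0.000174), with 2 of 3 hearts at 2 weeks at the floor, and this difference was not called with the lowest positive value as floor (adjusted p = 0.0818). Srxn1, which repairs peroxiredoxins, had levels of 2.32, 2.67 and 2.3 at 2 weeks and 4.64, 4.7 and 4.87 at 3 weeks (log2 change 0.97 ± 0.12, adjusted p = 8.2e-05) and differed from Het-CKO by 0.84 (adjusted p = 0.0248), which was lost without any of 8 of the 12 hearts (adjusted p up to 0.0770). Hmox1, heme oxygenase, was not called (log2 change 0.12, adjusted p = 0.752).

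Of 32 genes of the integrated stress response, the program run by the factor ATF4 when translation is curbed, 7 rose and 2 fell (median 0.193), beside 5 and 1 in CTL hearts (median 0.108) and 2 and 1 in Het-CKO hearts (median -0.029), and without the third heart at 2 weeks or the second at 3 weeks 4 were higher. Chac1, which degrades glutathione, had levels of 0.971, 1.2 and 1.13 at 2 weeks and 3.86, 3.83 and 3.32 at 3 weeks with no overlap (log2 change 1.74 ± 0.31, adjusted p = 0.00192, beside 0.81 in CTL and 1 in Het-CKO hearts). Atf4 mRNA was not called (log2 change 0.13, adjusted p = 0.374). Of 35 heat shock and endoplasmic reticulum chaperones 11 rose and 3 fell (median 0.283), beside 5 and 0 in CTL hearts (median 0.205) and 3 and 0 in Het-CKO hearts (median 0.034), and without the third heart at 2 weeks 7 were higher. Hspa8, the constitutive cytosolic chaperone, rose by a log2 change of 0.83 (adjusted p = 0.00871). Of 28 immediate early genes 2 rose and 7 fell (median -0.348), beside 0 and 5 in CTL hearts (median -0.186) and 0 and 3 in Het-CKO hearts (median -0.261). In CTL hearts 11 fell without the first heart at 2 weeks, and the Hom-CKO count of falls ranged from 1 to 8 as single hearts were left out. Jun, a subunit of the AP-1 factor, had levels of 28.3, 28.8 and 24.5 at 2 weeks and 10.2, 13.2 and 9.62 at 3 weeks, lower at 3 weeks without overlap (log2 change -1.32, adjusted p = 0.000294, beside -1.03 in CTL and -0.86 in Het-CKO hearts). Atf3, the stress-induced repressor, had levels of 8.51, 5.46 and 1.99 at 2 weeks and 0.924, 1.7 and 1.33 at 3 weeks, spread widely at 2 weeks, and its call (adjusted p = 0.0412) was lost in 5 of the 6 fits that left out a heart (adjusted p from 0.0644 to 0.186).

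Of 23 stress-induced secreted factors 9 rose and 2 fell (median 0.053), beside 3 and 3 in CTL and 0 and 2 in Het-CKO hearts, and 3 exceeded and 2 fell short of the CTL change. Timp1, an inhibitor of matrix proteases, had levels of 2.64, 2.46 and 2.32 at 2 weeks and 6.81, 7 and 6.16 at 3 weeks (log2 change 1.43 ± 0.20, adjusted p = 0.000332), with a CTL change of -0.17 and a difference of 1.60 (adjusted p = 0.011). The difference of Timp1 from Het-CKO was not called. Gdf15, a stress cytokine of the TGF-beta family, had levels of 5.45, 3.77 and 1.65 at 2 weeks and 11.3, 11.5 and 8.94 at 3 weeks, with hearts at 2 weeks spread over a wide range but all below those at 3 weeks (log2 change 1.70 ± 0.33, adjusted p = 0.00261). Its difference from CTL was 1.88 (adjusted p = 0.059). Fstl3, a follistatin-like activin inhibitor, had levels of 1.19, 1.22 and 0.939 at 2 weeks and 2.81, 2.24 and 2.53 at 3 weeks at the probe with the larger change and exceeded the CTL change by 1.2 (adjusted p = 0.00308), while its other probe was not called (0.37, adjusted p = 0.218). Spp1, the matricellular protein osteopontin, had levels of 0.749 and 0.543 in the 2 hearts with a usable spot at 2 weeks and 2.7, 4.91 and 2.22 at 3 weeks (log2 change 2.27 ± 0.33, adjusted p = 0.000334, beside 0.48 in CTL and 0.29 in Het-CKO hearts) and differed from Het-CKO by 1.99 (adjusted p = 0.0411), which was lost without any of 10 of the 12 hearts (adjusted p up to 0.193). Ctf1, the hypertrophic cytokine cardiotrophin, had levels of 3.4, 3.3 and 3.72 at 2 weeks and 2.44, 2.38 and 2.39 at 3 weeks, a fall (log2 change -0.53, adjusted p = 0.0024) where CTL hearts gave 0.32, and the difference from CTL was -0.84 (adjusted p = 0.00568).

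Many cell cycle genes fell. Of 64 tested, 43 (67.2%) were lower and 0 higher in Hom-CKO hearts, with a median log2 change of -0.817, beside 7.01% of all named genes lower. CTL hearts had 20 lower (median -0.398), and Het-CKO hearts 13 (median -0.344). With single CTL hearts left out the CTL count was 10 to 19, with 10 (median -0.333) without the first heart at 3 weeks and 12 (median -0.319) without the first at 2 weeks. No member's change differed from CTL or Het-CKO by the adjusted test, so a steeper fall in Hom-CKO hearts was not called for any gene. The hearts at 3 weeks were uneven. Mki67, the proliferation antigen Ki-67, had levels of 14.2, 10.7 and 11.7 at 2 weeks and 4.67, 5.83 and 1.59 at 3 weeks (log2 change -1.79 ± 0.46, adjusted p = 0.0166, beside -1.78 in CTL and -1.70 in Het-CKO hearts). Cdk1, the mitotic kinase, had levels of 12.2, 9.47 and 10 at 2 weeks and 3.37, 4.68 and 1.2 at 3 weeks (log2 change -1.98 ± 0.54, adjusted p = 0.0216, beside -1.62 in CTL and -1.25 in Het-CKO hearts). Top2a, the topoisomerase that untangles replicated DNA, had levels of 3.6, 3.01 and 2.73 at 2 weeks and 1.1, 1.46 and 0.318 at 3 weeks (log2 change -1.95 ± 0.46, adjusted p = 0.0102, beside -1.38 in CTL and -1.46 in Het-CKO hearts). In all of them the third heart at 3 weeks was the lowest. Prc1, which bundles microtubules at cytokinesis, had levels of 11, 9.49 and 9.55 at 2 weeks and 3.53, 4.83 and 0.871 at 3 weeks (log2 change -2.02 ± 0.46, adjusted p = 0.00899, beside -1.69 in CTL and -1.31 in Het-CKO hearts), and Ccna2, cyclin A, had levels of 7.3, 6.23 and 6.74 at 2 weeks and 2.12, 3.39 and 0.757 at 3 weeks (log2 change -1.94 ± 0.45, adjusted p = 0.00904, beside -1.37 in CTL and -1.25 in Het-CKO hearts). The summed level of the list was 411, 388 and 377 at 2 weeks and 271, 287 and 220 at 3 weeks. The number of members lower was 26 without the first heart at 2 weeks, 28 without the third at 2 weeks and 28 without the third at 3 weeks, and 8 by the methods' t-test. The call of Cdk1 was lost without the first or the third heart at 2 weeks or the third at 3 weeks (adjusted p of 0.0789, 0.0579 and 0.107), and that of Mki67 without the first at 2 weeks or the third at 3 weeks (0.0678 and 0.0807).

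The promoters of these genes are shown because cell cycle genes are known to share short elements near the start site, among them the cell cycle genes homology region (CHR). In RefSeq promoters of build GRCm38.p6, from 250 bases before to 50 bases after the start, the letters TTTGAA were found on either strand in 26 of 53 cell cycle genes with a promoter sequence (49.1%) and in 20.2% of 27025 genes. The share was 51.4% of the 37 members called lower and 43.8% of the 16 not called. CCAAT was found in 39 of the 53 (73.6%) against 41.1% of all genes, and the E2F letters TTTNNCGC in 12 (22.6%) against 5.93%. A match describes the sequence and not a bound site. The windows of 30 bases below, read on the gene's strand, carry the CHR letters in capitals.
Prc1, chr7:80294434-80294463, plus strand: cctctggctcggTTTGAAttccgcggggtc
Cdk1, chr10:69352910-69352939, minus strand: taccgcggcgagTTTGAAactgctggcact
Top2a, chr11:99024195-99024224, minus strand, with the letters as reverse complement: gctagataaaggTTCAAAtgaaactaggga
Mki67, chr7:135716460-135716489, minus strand: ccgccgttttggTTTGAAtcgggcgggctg
These are among the genes whose levels are given above.

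**Figure D4:**
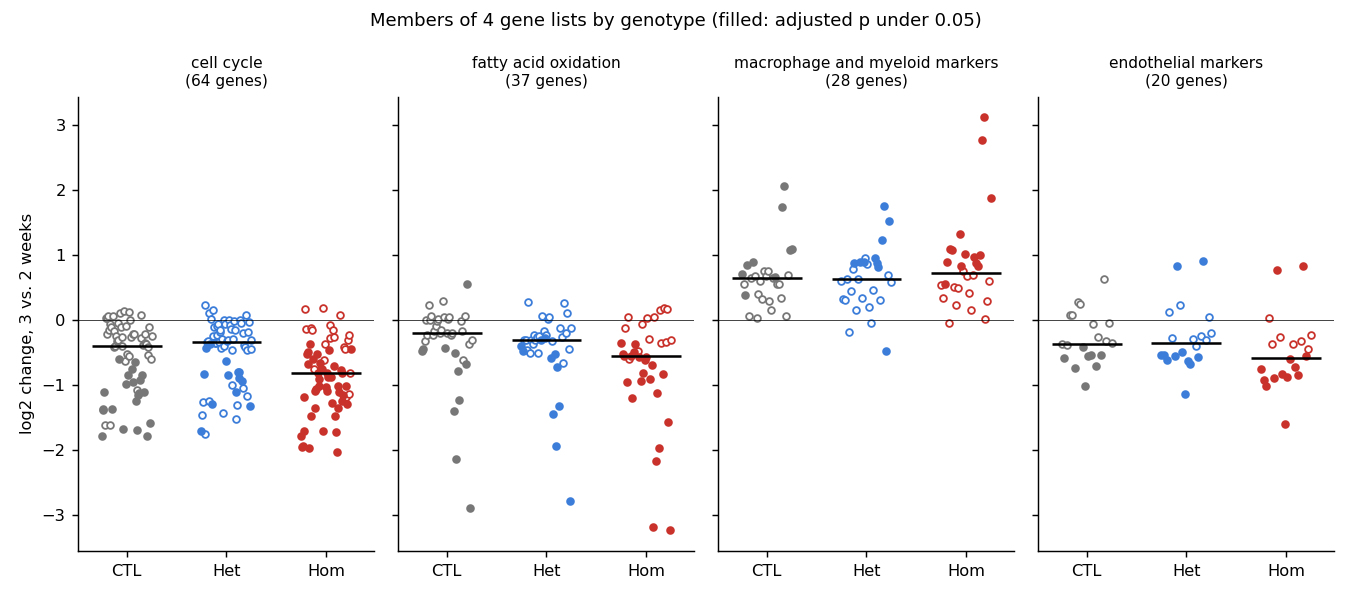
Log2 change from 2 to 3 weeks (y axis) of each member of the cell cycle (64), fatty acid oxidation (37), macrophage (28) and endothelial (20) lists in CTL, Het-CKO and Hom-CKO hearts, with filled points for an adjusted p under 0.05 and bars at the medians. In Hom-CKO hearts 43 cell cycle, 22 fatty acid oxidation and 11 endothelial genes were lower and 14 macrophage genes higher.

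Several markers of macrophages and other myeloid cells were called higher in each genotype. Of 28 tested, 14 rose and 0 fell in Hom-CKO hearts (median 0.724), 9 and 0 in CTL hearts (median 0.648) and 9 and 1 in Het-CKO hearts (median 0.637). In tissue RNA more cells of a type and more RNA per cell cannot be told apart. The summed level of the list was 139, 142 and 134 in Hom-CKO hearts at 2 weeks and 268, 309 and 279 at 3 weeks, and in CTL hearts 230, 126 and 145 and then 213, 282 and 315. The first CTL heart at 2 weeks stood apart from the others of its group, and without it 20 members were higher and 0 lower in CTL hearts (median 0.923). H2-Aa, a chain of the class II antigen-presenting molecule, had Hom-CKO levels of 3.66, 3.43 and 3.94 at 2 weeks and 28.8, 35.7 and 31.7 at 3 weeks (log2 change 3.12 ± 0.26, adjusted p = 1.66e-06). CTL hearts changed by 2.06 (adjusted p = 0.000254), and the difference, 1.06 (adjusted p = 0.215), was not called. Cd74, the invariant chain, had levels of 2.97, 2.83 and 3.49 at 2 weeks and 17.8, 24.5 and 21.5 at 3 weeks and H2-Ab1, the other class II chain, 0.543, 0.522 and 0.645 at 2 weeks and 4.3, 5.19 and 4.08 at 3 weeks, and both exceeded the Het-CKO change (1.54 (adjusted p = 0.0233) and 1.83 (adjusted p = 0.0306)) but not the CTL change (1.04 (adjusted p = 0.136) and 1.05 (adjusted p = 0.242)). The differences from Het-CKO were lost without any of 7 and of 11 of the 12 hearts (adjusted p up to 0.0768 and 0.0992). Ccr2, the receptor of recruited monocytes, had levels of 0.783, 0.794 and 0.92 at 2 weeks and 2.59, 3.76 and 2.9 at 3 weeks (log2 change 1.88 ± 0.24, adjusted p = 0.00012, beside 1.10 in CTL and 0.59 in Het-CKO hearts). Lyz2, lysozyme, had levels of 20.6, 23.1 and 20.6 at 2 weeks and 39, 49.8 and 46.9 at 3 weeks (log2 change 1.07, adjusted p = 0.00617, beside 0.89 in CTL and 0.78 in Het-CKO hearts). Csf1r, the receptor on which macrophages depend, had levels of 5.87, 5.74 and 6.08 at 2 weeks and 8, 9.67 and 8.47 at 3 weeks (log2 change 0.56, adjusted p = 0.0073, beside 0.39 in CTL and 0.30 in Het-CKO hearts). All of them were higher at 3 weeks in every heart, while Adgre1 and Cd68 were not called (log2 change 0.34, adjusted p = 0.264 and log2 change 0.54, adjusted p = 0.0898, the latter called in the fit of the 6 Hom-CKO arrays alone with the block, adjusted p = 0.0332).

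Of 17 complement genes 11 rose and 0 fell in Hom-CKO hearts (median 0.799), beside 4 and 2 in CTL hearts (median 0.467) and 5 and 1 in Het-CKO hearts (median 0.487), with 1 difference called against each genotype. The summed level was 115, 111 and 105 at 2 weeks and 166, 176 and 165 at 3 weeks in Hom-CKO hearts, and 164, 110 and 108 and then 148, 163 and 188 in CTL hearts. Without the first CTL heart at 2 weeks 11 rose and 2 fell in CTL hearts (median 0.693), as many rises as in Hom-CKO hearts. The Hom-CKO count was 7 without the second heart at 2 weeks or the second at 3 weeks, 6 without the third at 2 weeks, and 1 under spike-in scaling. C1qa, a chain of C1q made by macrophages, had levels of 17, 15.9 and 14.5 at 2 weeks and 30.4, 33.5 and 28.6 at 3 weeks (log2 change 0.97, adjusted p = 0.00263, beside 0.67 in CTL and 0.95 in Het-CKO hearts). Masp1, a protease of the lectin pathway, was the member that differed. Its Hom-CKO levels were 1.84, 1.62 and 1.52 at 2 weeks and 3.22, 3.41 and 3.26 at 3 weeks, higher at 3 weeks (log2 change 0.99 ± 0.10, adjusted p = 1.37e-05), while CTL and Het-CKO hearts fell (-0.42 (adjusted p = 0.0127) and -0.53 (adjusted p = 0.00668)), and the differences were 1.41 (adjusted p = 7.16e-05) and 1.53 (adjusted p = 2.82e-05). A second Masp1 probe gave 0.61 and was not called (adjusted p = 0.0603). The macrophage markers moved with these genes, and their part in the complement result was not tested. Of 45 genes of chemokines and leukocyte extravasation 15 rose and 4 fell (median 0.229), beside 12 and 1 in CTL hearts (median 0.359) and 8 and 4 in Het-CKO hearts (median 0.231). Of 15 lymphocyte genes 1 rose, and of 13 neutrophil and mast cell genes 2 rose and 1 fell, with summed levels that overlapped between the ages.

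Matrix genes held both rises and falls in Hom-CKO hearts. Of 55 matrix genes 10 rose and 8 fell in Hom-CKO hearts (median 0.017), where in CTL hearts 4 rose and 21 fell (median -0.229) and in Het-CKO hearts 3 rose and 12 fell (median -0.194). The Hom-CKO change was more positive than the CTL change for 7 members, where 1.09% of all named genes were more positive, and than the Het-CKO change for 4, where 1.06% were, and more negative for 0. The count of falls in Hom-CKO hearts was 4 without the first heart at 2 weeks, 5 without the third heart at either age and 4 under median scaling. Postn, the fibroblast protein periostin, fell in CTL hearts with a log2 change of -1.60 (adjusted p = 9.67e-05), whereas its Hom-CKO levels were 50.1, 42.2 and 41.9 at 2 weeks and 40.3, 33 and 23.1 at 3 weeks and its change was not called (log2 change -0.51, adjusted p = 0.0662). The difference was 1.10 (adjusted p = 0.0385). In the fit of the 6 Hom-CKO arrays alone with the block, the Hom-CKO change of Postn was called (adjusted p = 0.038). Col1a1, a chain of fibrillar collagen, gave 22.6, 20.5 and 25 at 2 weeks and 18, 18.3 and 16.7 at 3 weeks in Hom-CKO hearts (log2 change -0.36, adjusted p = 0.174) and fell in CTL hearts (-0.92 (adjusted p = 0.00223)). Col8a1, a short-chain collagen, had levels of 2.52 and 2.28 in the 2 hearts with a usable spot at 2 weeks and 6.91, 5.34 and 5.08 at 3 weeks and rose (log2 change 1.26 ± 0.18, adjusted p = 0.000365, beside 0.17 in CTL and 0.68 in Het-CKO hearts), with a difference from CTL of 1.08 (adjusted p = 0.0409). Timp4, a heart-enriched inhibitor of matrix proteases, had levels of 0.342, 0.35 and 0.322 at 2 weeks and 1.43, 1.1 and 1.19 at 3 weeks and rose (log2 change 1.87 ± 0.17, adjusted p = 6.05e-06, beside 0.76 in CTL and 1.34 in Het-CKO hearts), with a difference from CTL of 1.11 (adjusted p = 0.0337). Fn1, fibronectin, had levels of 41, 37.3 and 37.5 at 2 weeks and 25.8, 23.9 and 18.3 at 3 weeks and fell (log2 change -0.78, adjusted p = 0.000664), beside a CTL change of -1.34. Thbs2, a matricellular thrombospondin, had levels of 4.64, 4.13 and 5.38 at 2 weeks and 2.31, 2.4 and 2.59 at 3 weeks and fell (log2 change -0.95, adjusted p = 0.000664, beside -0.63 in CTL and -0.56 in Het-CKO hearts), and Adamts4, an aggrecanase, had levels of 2.51, 2.04 and 2.25 at 2 weeks and 0.552, 0.58 and 0.514 at 3 weeks (log2 change -2.04, adjusted p = 0.000104, beside -1.52 in CTL and -2.16 in Het-CKO hearts). The differences from CTL of Postn, Col8a1 and Timp4 passed the threshold with all hearts but not when any of 9, 9 and 7 of the 12 hearts in the contrast was left out (adjusted p up to 0.105, 0.155 and 0.0965), and that of Timp4 was lost with the replicate block (adjusted p = 0.0600).

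Fibroblast markers were mixed, with 4 of 22 higher and 2 lower (median -0.041) beside 2 and 9 in CTL and 1 and 5 in Het-CKO hearts, and their summed level was 932, 915 and 943 at 2 weeks and 1080, 985 and 944 at 3 weeks. Endothelial markers fell. Of 20 tested, 11 were lower and 2 higher in Hom-CKO hearts (median -0.577), beside 8 and 0 in CTL hearts (median -0.363) and 9 and 2 in Het-CKO hearts (median -0.348), and no member's change differed between genotypes by the adjusted test. Their summed level was 630, 572 and 552 at 2 weeks and 396, 376 and 387 at 3 weeks in Hom-CKO hearts, and 616, 606 and 593 and then 467, 445 and 510 in CTL hearts. The 3-week Hom-CKO hearts thus lay below all CTL hearts of the same age. Cldn5, the tight junction protein of endothelium, had levels of 32, 29.2 and 28.5 at 2 weeks and 9.99, 10.2 and 9.51 at 3 weeks (log2 change -1.60 ± 0.19, adjusted p = 5.27e-05, beside -1.01 in CTL and -1.13 in Het-CKO hearts). Kdr, the main VEGF receptor, had levels of 37.6, 32.3 and 38.7 at 2 weeks and 17.1, 18.3 and 18.3 at 3 weeks (log2 change -1.01 ± 0.13, adjusted p = 8.2e-05, beside -0.38 in CTL and -0.61 in Het-CKO hearts). Pecam1, an adhesion molecule of endothelial junctions, had levels of 17.9, 15.7 and 16.3 at 2 weeks and 9.04, 10.2 and 10.3 at 3 weeks (log2 change -0.76, adjusted p = 0.0014, beside -0.37 in CTL and -0.54 in Het-CKO hearts). Tie1 and Cdh5 fell too (log2 change -0.89, adjusted p = 0.000552 and log2 change -0.92, adjusted p = 0.000874). Apln, named above, is made largely by endothelial cells, and the part of these markers in its fall was not tested. Of 17 smooth muscle and pericyte genes 0 rose and 4 fell (median -0.337), beside 0 and 7 in CTL and 0 and 3 in Het-CKO hearts. Of 11 skeletal muscle genes 1 rose and 1 fell, and of 17 atrial and conduction genes 1 rose, which was Nppa, and 2 fell.

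Igf2 and H19 fell in Hom-CKO and CTL hearts. Igf2, the fetal growth factor, had Hom-CKO levels of 32.2, 30.1 and 33.7 at 2 weeks and 13.9, 13.7 and 15.5 at 3 weeks (log2 change -1.16 ± 0.17, adjusted p = 0.000291), with -0.69 in CTL hearts. H19, the imprinted RNA beside it, had levels of 28.5, 27.9 and 31.7 at 2 weeks and 14.8, 14.4 and 15.5 at 3 weeks (log2 change -0.98 ± 0.23, adjusted p = 0.00953), with -0.98 in CTL hearts. Of 27 growth factor and imprinted growth genes 2 rose and 5 fell in Hom-CKO hearts (median -0.058), beside 2 and 5 in CTL hearts (median -0.074) and 1 and 2 in Het-CKO hearts (median -0.003).

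Few genes of the signalosome, the ligase core and the proteasome were called, beside 8.87% of all named genes higher and 7.01% lower. More were called in the receptor, autophagy and vesicle lists. Of 9 signalosome genes and 21 cullin and ligase core genes 0 were called, with medians of 0.011 and 0.048, and of 40 proteasome genes 1 rose, beside 2 higher and 1 lower in CTL and 0 and 0 in Het-CKO hearts. Under quantile normalization within each age 1, 7 and 7 of them were higher. Of 56 F-box substrate receptors 9 rose and 3 fell (median 0.048), beside 4 and 5 in CTL and 2 and 2 in Het-CKO hearts. Fbxo27, an F-box protein that binds glycoproteins, had levels of 0.857, 1.14 and 1.08 at 2 weeks and 1.79, 2.1 and 2.24 at 3 weeks with no overlap (log2 change 1 ± 0.13, adjusted p = 0.000105, beside 0.15 in CTL and 0.14 in Het-CKO hearts) and exceeded the CTL change by 0.86 (adjusted p = 0.0283). Of 49 BTB-Kelch and Kelch-domain genes 5 rose and 8 fell (median -0.05), beside 4 and 5 in CTL and 1 and 1 in Het-CKO hearts. The Hom-CKO change was more negative than the CTL change for 1 member and than the Het-CKO change for 3. Of all named genes 0.662% and 0.385% were. Of 52 autophagy and lysosome genes 11 rose and 1 fell (median 0.157), beside 3 and 2 in CTL and 0 and 1 in Het-CKO hearts, with 0 differences called against CTL hearts and 1 against Het-CKO hearts. Ctsd, the lysosomal protease cathepsin D, had levels of 70.9, 63 and 66.4 at 2 weeks and 94, 108 and 90.5 at 3 weeks (log2 change 0.54, adjusted p = 0.00412, beside 0.33 in CTL and 0.07 in Het-CKO hearts). The count of rises was 6 without the first heart at 2 weeks, 5 without the second at 3 weeks, 6 without the third at 3 weeks and 21 under quantile normalization within each age. Of 48 vesicle trafficking and microtubule genes 9 rose and 3 fell (median 0.052), beside 7 and 5 in CTL and 6 and 1 in Het-CKO hearts, and 3 exceeded the CTL change. Rin1, an exchange factor for the endosomal GTPase Rab5, had levels of 2.14, 2.31 and 1.72 at 2 weeks and 5.33, 5.6 and 5.42 at 3 weeks and exceeded the CTL change by 0.84 (adjusted p = 0.0297) and the Het-CKO change by 1.26 (adjusted p = 0.00158). Mical3, a monooxygenase that acts on the cytoskeleton and on exocytic vesicles, had levels of 3.72, 3.46 and 3.47 at 2 weeks and 9.33, 8.99 and 8.06 at 3 weeks and exceeded the CTL change by 0.72 (adjusted p = 0.0243) and the Het-CKO change by 0.91 (adjusted p = 0.00579). The differences from CTL of Fbxo27, Rin1 and Mical3 were lost without any of 6, 7 and 5 of the 12 hearts (adjusted p up to 0.0766, 0.0819 and 0.0713).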

How the data were processed

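The members and gene lists were chosen with earlier results of these data known. Raw intensities were deposited by the authors as CodeLink software output, 1 file per array, in which the median local background has been subtracted from each spot's mean brightness. The study's methods name robust multi-array averaging and quantile normalization, and the raw values were used here.

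DISCOVERY probes (34967 per array) were quantile normalized over the 18 arrays after spots flagged C, I or M were left out, divided by the median probe, floored at 0.318 (quantile 0.01 of the probes above background) and taken to log2. Tested were the 26606 probes that exceeded background in every heart of some group. limma 3.58.1 in R 4.3.3 fitted 1 mean per genotype and age over the 18 arrays (prior degrees of freedom 3.56), two-sided, with Benjamini-Hochberg adjustment. The fit drops a flagged spot, so such a gene has 2 hearts at that age. Gene names came from the files and the platform annotation, and lists were counted at each gene's brightest probe. Of the probes, 5202 had no name and 681 had several, and neither were named. Named were the 15 largest rises and 15 largest falls, the 8 largest differences each way called against both CTL and Het-CKO, list members with the largest called changes (up to 6 each way) and members that define a list. The largest rises, falls and differences were taken only where the Hom-CKO hearts of the 2 ages did not overlap, so this separation was fixed by the choice. Genes described are a selection of these sets, and some are not reported here.

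Each array held 1 animal, which the labels give as separate samples, and no litter is named. Residuals of same-numbered Hom-CKO samples of the 2 ages correlated at 0.17, 0.203 and 0.131, so the replicate number was treated as a possible pairing in an alternative fit with a replicate block. In CTL they correlated at -0.381, -0.0981 and -0.207. Alternatives were median scaling, the series value table, flagged spots kept, other filters and floors, normalization within each age, the methods' t-test, a trended robust prior, fits of the 6 Hom-CKO arrays alone, and each heart left out. Spike-in scaling, and the lowest positive value as floor for the Hom-CKO change and both differences, were added after seeing the data. The scripts were tested on simulated data with known changes.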

Additional observations from a re-analysis of the deposited data

Results flagged for a closer look

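The change from 2 to 3 weeks in Hom-CKO hearts differed from that in CTL hearts at 366 probes and from that in Het-CKO hearts at 308 probes, by the limma contrast of the changes with Benjamini-Hochberg adjustment. The named genes below passed that test of the difference itself, and values are the Hom-CKO change minus the other change on the log2 scale. For Serpinb1c, Mylk2, Ankrd2, Gm15743 and Rasgrf2 the CTL and Het-CKO changes were only 0 to 0.16, on values held at or near the floor. Such values have little or no spread, and a probe could be tested through the Hom-CKO hearts alone. The sizes and adjusted p of these differences therefore depend on the filter and the floor.

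The Hom-CKO change was more positive than the CTL change by over 2 for 10 named genes, with 4.13 for Bdh1, 3.36 for Ido1, 2.89 for Tent5b, 3.15 for Serpinb1c, 3.12 for Cda, 2.38 for Mylk2, 2.10 for Cdkn1a, 2.37 for Ankrd2, 2.40 for Gm15743 and 2.92 for Rasgrf2. Smaller positive differences were 1.35 for Phlda3, 1.63 for Gsta1, 1.60 for Timp1, 1.41 for Masp1 and 1.51 for Serpina3n. A further group had 1.11 for Timp4, 0.84 for Rin1, 0.72 for Mical3, 1.08 for Col8a1, 1.09 for Pparg, 1.2 for Fstl3, 0.78 for Myom3, 0.86 for Fbxo27, 1.12 for Bhmt2 and 1.10 for Postn. More negative Hom-CKO changes were -1.85 for Fbp2, -1.83 for Apln, -2.02 for Jade1, -1.21 for Plin5, -0.96 for Slc25a20, -1.59 for Kcnip2, -0.70 for Ctnna3, -0.84 for Ctf1, -1.32 for Pfkfb1 and -2.14 for Lrat. Against Het-CKO, and not against CTL, the differences were 1.54 for Cd74, 1.99 for Spp1, 0.84 for Srxn1 and 1.83 for H2-Ab1. Those of Tent5b, Timp1, Timp4, Col8a1, Bhmt2, Postn, Kcnip2, Ctnna3 and Pfkfb1 were called against CTL and not against Het-CKO.

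The differences of Pfkfb1 and of the genes named in the report as lost without single hearts were not called in every fit with a heart left out. That of Pfkfb1 was lost without any of 4 hearts (adjusted p up to 0.0574). The sign for Gm15743 rests on the floor, and neither of its differences was called when the floor was the lowest positive value. With that floor the differences from CTL of Serpinb1c, Rasgrf2, Myom3, Gsta1, Col8a1, Timp4, Postn and Ctnna3 were not called either. Those from Het-CKO of Serpinb1c, Rasgrf2, Myom3, H2-Ab1, Spp1, Ctf1, Fbxo27, Phlda3 and Slc25a20 were also lost.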

How the results depend on the processing

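The Hom-CKO count of 3725 was 2202 by the methods' t-test and 713 by spike-in scaling (247 higher and 466 lower), and 2251 to 3041 when hearts were left out singly. By normalization within each age it was 4346 with 2828 higher and 1518 lower, against 1912 and 1813. The CTL count of 4423 was 18 by the methods' t-test and 2205 to 5120 with single hearts left out, and under median scaling it was 5807 with 3774 higher. The Het-CKO count of 2173 was 214 by the methods' t-test and 806 to 1456 with single hearts left out. The difference from CTL, 366 probes, was 239 with the lowest positive value as floor, 55 by spike-in scaling and 219 to 608 with single hearts left out, the fewest without the third Hom-CKO heart at 2 weeks and the most without the third CTL heart at 3 weeks. The difference from Het-CKO, 308 probes, was 194 for probes above background on all arrays, 146 with that floor, 54 by spike-in scaling and 157 to 251 with single hearts left out. With the replicate block the counts were 3625, 4412 and 2000 within Hom-CKO, CTL and Het-CKO and 330 and 248 for the differences, and 3388 of the 3725 Hom-CKO calls were shared. The block changed no Hom-CKO call among the 100 genes described, and beside Timp4 it ended the differences from Het-CKO of Ctf1, Fbxo27, Phlda3 and Slc25a20.

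Changes near 0 turned sign. By normalization within each age they were 0.104 for Atp2a2, 0.068 for Cops8, 0.033 for Myh6, 0.123 for Pln and 0.343 for Tnni3. By median scaling and in the series value table they were 0.010 for Myh6 and 0.195 for Tnni3, and by spike-in scaling -0.107 for Hmox1. With single hearts left out Myh6 gave -0.179 to 0.150, and 0.028 without the first heart at 2 weeks. The difference of Gm15743 from CTL was -2.688 with the lowest positive value as floor. Spike-in scaling ended 25 and the methods' t-test 20 of the calls of described genes. The causes were not tested. Probes near background limit the size of the changes that start at the floor.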
